A study of Caenorhabditis elegans with 10 samples.

Results

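The circRNA loci with a genomic span of 1300 nt or more, taken as the deposited end minus the start, were taken as a class. They were 41 of the 141 loci in the deposited count table, came from 33 host genes and were chosen by span alone, with no host left out. Whole hermaphrodites on day 3 of adulthood were sequenced for both groups, which were wild-type N2 and the mutant nova-1(tm6146) of strain VDL1105, with 5 biological replicates of each genotype. The mutant is an outcrossed deletion allele present in every tissue, and both genotypes had been kept on FUdR plates to prevent progeny. The table gives counts of reads over a 200-nt scaffold around each back-splice junction, so that counts of long and short circles are on the same length scale.

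A circRNA forms when a downstream splice donor is joined to an upstream splice acceptor, a reaction called back-splicing, which closes one or more exons into a ring without free ends. The introns inside the ring can be removed or kept, and the introns on either side bring the donor and acceptor together. NOVA proteins are KH-domain RNA-binding proteins that regulate splicing and in mammals are best known from neurons, and nova-1 is the C. elegans member of the family. A table of back-splice junctions shows which donor and acceptor were joined and how often, but not which exons lie inside a long circle.

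The study designed oligonucleotides for a circle and for the linear transcript of K02D10.1, a host of 1 long locus (cel_circ_0000408). They are shown because the circular pair faces outward on the linear transcript and gives a product only across a back-splice junction, the feature that is counted here, while the linear pair reads the parent mRNA. K02D10.1 is on chromosome III. Each is written 5′ to 3′.
circular forward: acgttttaattttgccacacaca
circular reverse: actggattggtgtggcagat
linear forward: tcaatgtcaggccgtaacga
linear reverse: ggcacagtattcgcaacagt
The first is 23 nt long with 34.8% G and C, and the others are 20 nt long with 50% G and C.

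The spans of the long loci ran from 1355 to 13433 nt with a median of 2074 nt, against 146 to 1240 nt with a median of 471.5 nt for the other 100 loci. Nearest to the limit, the denn-4 locus cel_circ_0000947 at 1355 nt and the M01G5.1 locus cel_circ_0000324 at 1389 nt lay inside. They had mean normalized counts of 16.6 and 18.7 and log2 fold changes (nova-1 over wild-type) of 0.41 and 0.04. Just outside lay the gap-3 locus cel_circ_0000035 at 1240 nt, with a mean of 50.6 and a log2 fold change of -0.49. The afd-1 locus of 1230 nt, listed at 2 positions, also lay outside, with means of 55.0 and 58.6 and log2 fold changes of 0.12 and -0.14. By chromosome, 12 of the long loci were on I, 3 on II, 12 on III, 7 on IV, 5 on V and 2 on X.

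The deposited coordinates, labelled ce11, were set against the exons of the WBcel235 annotation, which is the same assembly. For 36 of the 41 long loci, an annotated exon start and an annotated exon end of 1 gene had the same span to within 2 nt and lay within 130 nt of the deposited position. Only 7 of the 41 were within 1 nt of the annotated exons, and the offset became larger along most chromosomes, from 0 nt at the first matched locus of chromosome III to 120 nt at the last. Positions below are therefore those of the table, and exon structures are those of the annotated pair with the same span. Of the 5 loci without such a pair, ddx-19 and K02D10.1 matched at the start only, and fars-2 lay inside its gene without a matching boundary. The interval listed for gei-4 did not overlap that gene, and no gene held the whole interval listed for Y92H12BL.10. Host names for these 5 are those of the study's circRNA list and were not supported by exon boundaries.

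Every one of the 36 matched long loci spanned more than 1 exon of its host, with 2 to 9 exons and a median of 3, whereas 44 of the 86 matched shorter loci held a single exon. Between 2 and 4 exons lay in 29 of the long loci and 5 or more in 7, which included 9 exons at the rhgf-3 locus cel_circ_new_0000493 and 8 at haf-4. Exons filled a median of 22.6% of the span, from 7.60% at tra-1 to 88.3% at sma-9. In the shorter loci the median was 100%. The exons inside a long circle added up to a median of 535 nt (269 to 2395 nt), against 345.5 nt in the shorter ones, so most of the extra span was intron. The intron upstream of the circle had a median length of 1377.5 nt for the long and 1310 nt for the shorter loci, and the downstream intron 1722 and 1296 nt. At tmem-189, max-2, mdt-20 and mrp-7, the first exon of the matched pair was the first exon of the transcript, so no upstream intron could be measured. Whether the inner introns are retained in the circles cannot be read from junction counts.

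Several long circles shared a splice site with another circle of the same gene. Of the 41 loci, 16 had at least 1 other locus of their host in the table (loci at most 2 nt apart counted as 1), 7 shared the splice acceptor with one of these, and 3 shared the donor. The shared acceptors belonged to 4 hosts, namely rhgf-3, pqn-41, zip-12 and fars-2. At fars-2 this rests on a shared deposited coordinate and the strand of the listed host, since no exon boundary matched its long circle. In rhgf-3, which is on the minus strand, the acceptor at 14604126 on chromosome I was joined to donors that closed circles of 13433, 3947 and 2074 nt. In pqn-41, the acceptor at 1927666 on chromosome III was used by circles of 1796 and 3610 nt.

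In total, 7955 to 15014 counts fell on all loci in the wild-type libraries and 8514 to 9437 in the nova-1 libraries. Wild-type replicate 1 had the largest total. Among the wild-type libraries it gave the highest normalized count at 12 of the 41 long loci and the lowest at 16, while replicate 4 gave the highest at 12 and the lowest at 10. Over the whole table replicate 1 differed most. Its TMM normalization factor was 0.699, against 0.92 to 1.12 in the other wild-type libraries. Chi-square per degree of freedom between pairs of wild-type libraries was 17.6 to 27.5 with replicate 1 and 2.47 to 4.44 without it. A long locus had between 8 and 741 counts over the 10 libraries (median 220), and 33 of the 41 passed edgeR's filter on low counts, against 118 of 141 in all. No locus of nova-1 itself is in the table, so the genotype labels could not be checked with it. In whole animals, fewer cells that make a circle and fewer circles per cell cannot be told apart.

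The long loci were a small fraction of the circRNA counts in both genotypes. Their share of all counts was 7.69, 10.3, 9.79, 10.9 and 13.2% in wild-type replicates 1 to 5 and 13.0, 11.7, 12.3, 9.71 and 10.2% in the nova-1 replicates. The 95% Wilson interval was 7.28 to 8.13% for the lowest library and 12.5 to 14.0% for the highest, and covers counting error only. The means were 10.4% ± 2.00 and 11.4% ± 1.40 (SD, n = 5 libraries each), and the genotypes overlapped. These shares depend on 3 short loci, vit-6, zip-2 and rps-7, which together took 34.9 to 46.2% of the counts in nova-1 mutants and 46.0 to 55.8% in wild-type. Vit-6 encodes a yolk protein, zip-2 a bZIP transcription factor and rps-7 a ribosomal protein.

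Without these 3 loci, the direction of the difference in share turned. Of the remaining counts, the long loci then took 21.5% ± 3.20 in wild-type, compared with 18.9% ± 0.82 in nova-1 mutants (SD, n = 5 libraries each). Wild-type replicates 2 to 5 lay at 23.3, 21.0, 22.4 and 24.5%, above all nova-1 libraries, which had a median of 18.9% and a lowest value of 18.02%. Wild-type replicate 1 lay below all of them at 16.3%, and there another short locus, of the collagen gene col-181, held 34.9% of these remaining counts (2481), against 2.64 to 11.7% in the other libraries. With col-181 also left out, an alternative chosen after the data had been seen, the share in wild-type was 24.9% ± 1.01 (23.8 to 26.2%) and that in nova-1 mutants 19.8% ± 0.86 (18.8 to 20.6%; SD, n = 5 libraries each), without overlap.

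**Figure D1:**
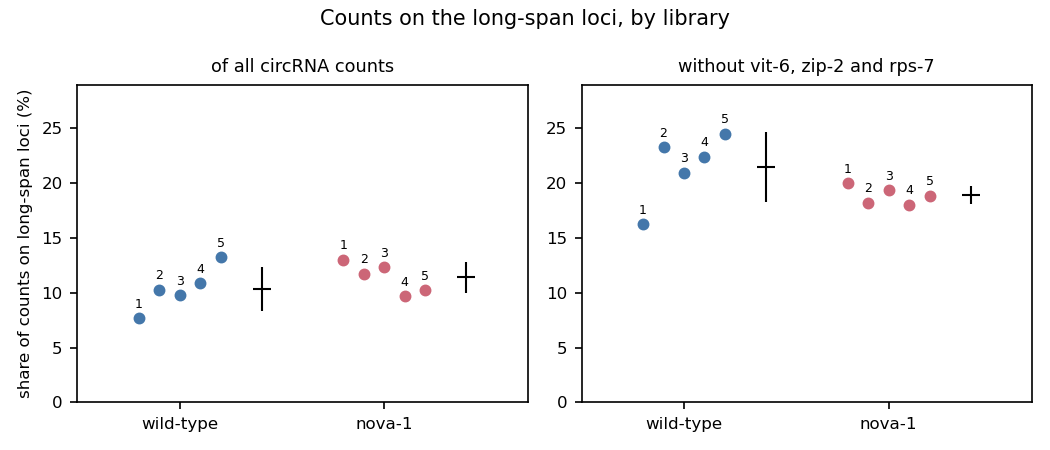
Share of circRNA counts on the 41 long-span loci (percent) in each library, numbered by replicate, of all counts (left) and without vit-6, zip-2 and rps-7 (right); bars give the mean and SD of 5 libraries. The genotypes overlap on the left, and on the right 4 of 5 wild-type libraries lie above all nova-1 libraries while replicate 1 lies below it at 16.3%.

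Single long loci were about as abundant as short ones but did not reach the highest levels. Counts normalized for library size with TMM factors and scaled to a mean library of 9421 counts had a median of 21.9 over the long loci and 24.9 over the others. The most abundant long locus was that of zip-12, a bZIP transcription factor, with a mean of 74.1 normalized counts, which placed it 16th of 141. It was followed by the rhgf-3 loci cel_circ_new_0000504 and cel_circ_new_0000501 with means of 60.1 and 58.8. The pqn-41 locus cel_circ_0000334 came next with 58.2 and the locus listed for Y92H12BL.10 with 54.6. Together these 5 held 30.04% of all counts on long loci. Spearman's rank correlation between span and abundance was 0.05 over the 41 long loci, a description over loci that share the same 10 libraries. With the summed length of the exons in place of span, it was 0.42 over the 36 matched long loci and 0.03 over the 122 matched loci of the table.

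Between genotypes, the long loci changed about as often as the rest of the table. Of the 41, 12 passed an adjusted P of 0.05 (edgeR quasi-likelihood F-test, Benjamini-Hochberg adjustment over all 141 loci), which is 29.3%, where 28.4% of all loci passed. Higher in nova-1 mutants were 5, where 15.6% of all loci were higher, and lower were 7, where 12.8% of all loci were lower. With an absolute log2 fold change above 0.5 and an unadjusted P under 0.05, 17 passed (41.5%, against 40.4% of the table). Of these, 6 were higher, where 21.3% of all loci were, and 11 lower, where 19.1% were. The normalized counts of the genotypes did not overlap at 8 of the 41 or 19.5%, against 24.8% in all, with 3 higher (14.9% of all loci) and 5 lower (9.93% of all loci).

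The median log2 fold change was -0.20 over the long loci (13 positive and 28 negative), -0.05 over the others and -0.10 over all. Scaling to column totals without TMM raised the median of all loci by 0.23 and that of the long loci to 0.020, so that the sign of the class median depends on the scaling. The median of the long loci lay below that of all loci under both, by 0.10 with TMM and 0.12 with column totals. It was -0.30 without wild-type replicate 3 and -0.32 without nova-1 replicate 1 or replicate 3. The median size of the change, without its sign, was 0.51 for the long loci and 0.58 for the others. Rank correlation between span and log2 fold change was 0.01 over the 41 loci. Between summed exon length and log2 fold change it was 0.39 over the 36 matched long loci and 0.03 over the 122 matched loci of the table, and neither was tested.

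**Figure D2:**
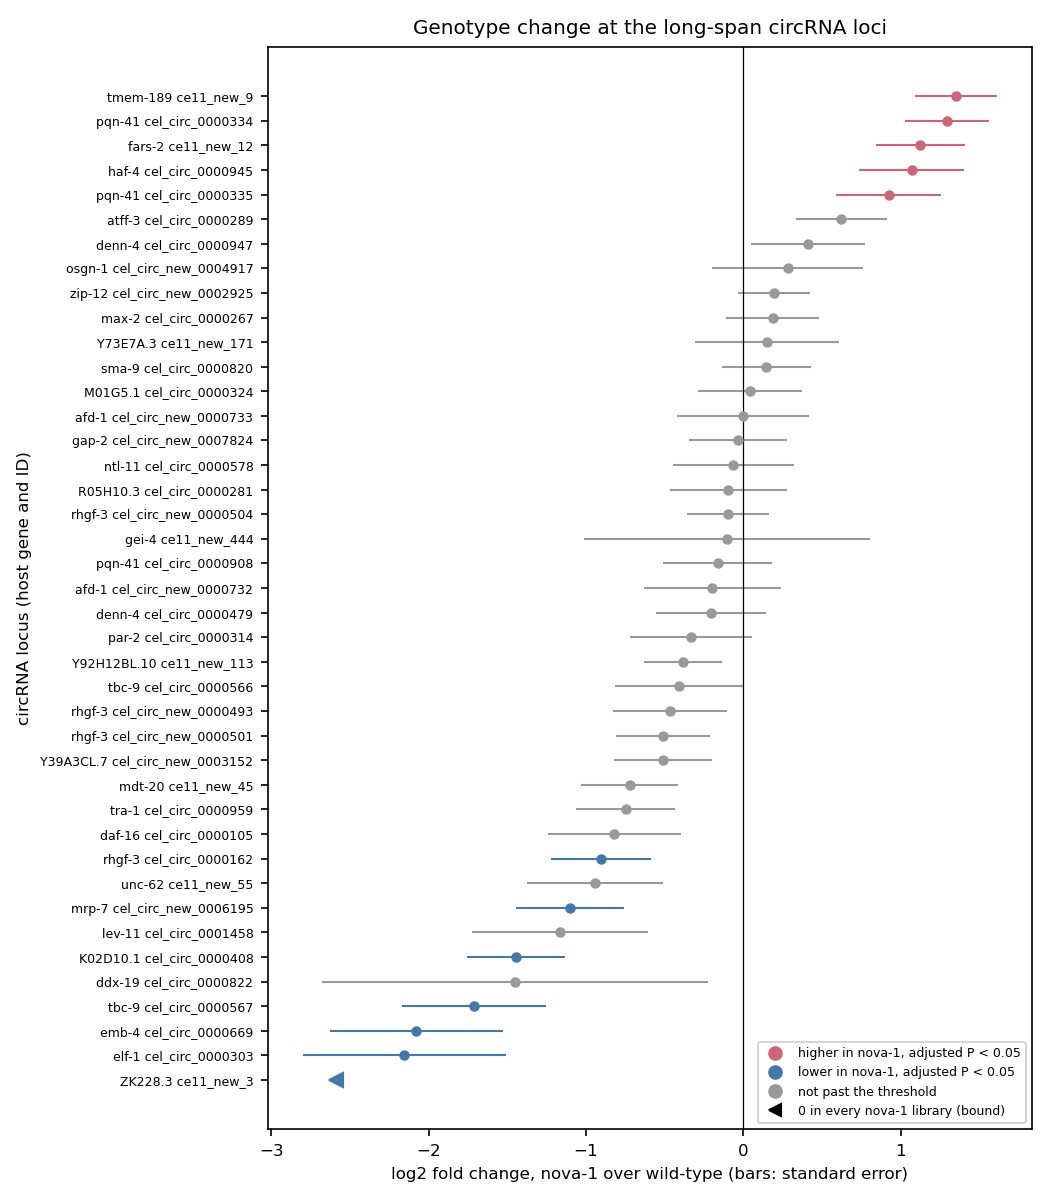
Log2 fold change (nova-1 over wild-type) and its standard error for each of the 41 long-span loci, with 5 libraries of each genotype; the arrow marks ZK228.3, which had no count in nova-1 libraries and is drawn at its bound. The 5 loci in red and 7 in blue passed an adjusted P of 0.05, and the other 29 are gray.

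Within the class, the 12 calls lay at spans under 3700 nt. Of the 18 loci with spans from 1300 to under 2000 nt, 7 were called (2 higher and 5 lower). Of the 14 from 2000 to under 3700 nt, 5 were called (3 higher and 2 lower). In the whole table, 28.4% of the 141 loci were called. Of the 9 loci of 3700 nt or more, 0 passed with edgeR and 0 with DESeq2, although 2, unc-62 and tra-1, had an unadjusted P under 0.05 by both tools. Single loci of this bin passed the adjusted threshold in other fits. They were rhgf-3 cel_circ_new_0000501 and tra-1 without wild-type replicate 1, tra-1 and unc-62 without nova-1 replicate 5, and tra-1 with the filter on low counts. All 9 had a log2 fold change below 0, from -0.94 to -0.06, with TMM, and 5 of the 9 with column totals. Over the whole table, 81 of 141 were below 0 with TMM, and the median standard error of the 9 was 0.36. These bounds of 2000 and 3700 nt were chosen after the values had been seen, and the difference in calls between the bins was not tested.

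**Figure D3:**
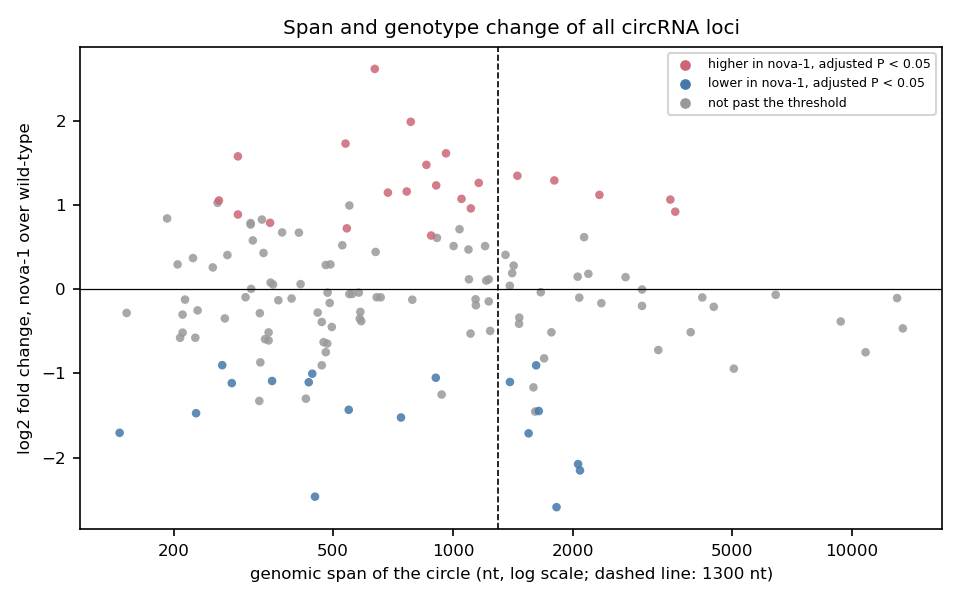
Genomic span (nt, log scale) against log2 fold change (nova-1 over wild-type) of all 141 loci, with the limit of 1300 nt as a dashed line; red and blue points passed an adjusted P of 0.05 and ZK228.3 is drawn at its bound. To the right of the limit, 5 loci are red and 7 blue, and the 9 loci of 3700 nt or more are gray in this fit, with up to 2 of them called when 1 library is left out or low counts are filtered, and below 0 with TMM scaling, 5 of them also with column totals.

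The host group of translation, yolk, metabolism and transport, drawn up with results known, held 3 long loci, and all 3 were called, 2 higher and 1 lower, where 28.4% of all loci were called. Fars-2 encodes a phenylalanyl-tRNA synthetase, which loads phenylalanine onto its tRNA, and its long circle ce11_new_12 (2330 nt, at 19900492 to 19902822 on chromosome V) rose. It had 23.3, 12.9, 25.6, 27.4 and 18.7 normalized counts in wild-type and 46.6, 44.9, 59.8, 34.4 and 49.1 in nova-1 mutants. Every nova-1 library lay above every wild-type library. The log2 fold change was 1.12 (standard error 0.28, adjusted P = 0.00406, edgeR).

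Haf-4 encodes a half-type ABC transporter of lysosome-related organelles in the intestine, and its circle cel_circ_0000945, which spans 8 exons, also rose. It lay at 7.18, 13.9, 9.32, 23.8 and 16.6 normalized counts in wild-type and 28.6, 32.9, 29.4, 22.9 and 33.8 in nova-1 mutants. Only the highest wild-type library and the lowest nova-1 library crossed. The log2 fold change was 1.07 (standard error 0.33, adjusted P = 0.0160, edgeR). Mrp-7, another ABC transporter gene, of the multidrug resistance family, moved the other way. Its circle cel_circ_new_0006195 fell from 15.3, 26.9, 22.1, 32.2 and 27.0 normalized counts in wild-type to 9.82, 11.98, 9.81, 11.5 and 14.2, without overlap (log2 fold change -1.10, standard error 0.34, adjusted P = 0.0156, edgeR). With column totals in place of TMM its adjusted P was 0.0640.

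Regulators of small GTPases and membrane traffic gave 9 long loci of 4 hosts. Of these, 2 were called, both lower, where 28.4% of all loci were called and 12.8% were lower. Of the 9 log2 fold changes, 8 were below 0 with TMM and 5 with column totals. Tbc-9 encodes a protein with a TBC domain, the domain of Rab GTPase-activating proteins, and had a pair of long circles. The circle cel_circ_0000567 (1548 nt, 4 exons) fell from 41.3, 17.9, 17.5, 10.7 and 11.4 normalized counts in wild-type to 2.45, 4.99, 7.14, 7.30 and 8.74 in nova-1 mutants. The groups did not overlap, although wild-type replicate 1 stood far above the other wild-type libraries. The log2 fold change was -1.71 (standard error 0.46, adjusted P = 0.00589, edgeR), and -1.24 (adjusted P = 0.0279) without that library. Its neighbor cel_circ_0000566 (1465 nt) overlapped between genotypes, with a log2 fold change of -0.41 (adjusted P = 0.498, edgeR). It too was highest in wild-type replicate 1, at 67.3 normalized counts against 8.35 to 28.0 in the other 4, and without that library its log2 fold change turned to 0.27.

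Rhgf-3, listed as Y105E8A.25, gave 4 long loci, the most of any host. The one nearest the end of the gene, cel_circ_0000162 (1617 nt), fell, with 63.7, 31.9, 30.3, 34.6 and 39.4 normalized counts in wild-type and 12.3, 19.96, 36.6, 22.9 and 15.3 in nova-1 mutants. One nova-1 library lay within the wild-type range. The log2 fold change was -0.90 (standard error 0.32, adjusted P = 0.0326, edgeR), and it did not pass without wild-type replicate 1 (-0.66, adjusted P = 0.0727), without wild-type replicate 5, or without nova-1 replicate 1, 2 or 5 (adjusted P up to 0.0835). The 3 circles that share the acceptor at 14604126 did not pass, with log2 fold changes of -0.46, -0.51 and -0.10 for spans of 13433, 3947 and 2074 nt. At cel_circ_new_0000501 (3947 nt), wild-type replicate 1 had 21.5 normalized counts against 66.4 to 105 in the other 4, and without it the locus passed (log2 fold change -0.74, adjusted P = 0.00440, edgeR).

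Denn-4, which encodes a DENN-domain protein of the family that activates Rab GTPases, had circles of 4509 and 1355 nt with log2 fold changes of -0.21 and 0.41, and neither passed. The long circle of gap-2, a Ras GTPase-activating protein gene, had 16.4 to 30.9 normalized counts in nova-1 mutants and 16.7 to 27.8 in wild-type, with a log2 fold change of -0.03 (adjusted P = 0.941, edgeR).

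Transcription factors and cofactors hosted 8 long loci. The adjusted threshold was passed by 28.4% of all loci and by 1 of the 8, that of elf-1. Its circle cel_circ_0000303 (2083 nt) lay at 30.5, 7.97, 5.83, 11.9 and 11.4 normalized counts in wild-type and 8.18, 0, 1.78, 0 and 4.37 in nova-1 mutants. Most nova-1 libraries were below wild-type, with an overlap of 2 wild-type libraries and 1 nova-1 library. The log2 fold change was -2.15 (standard error 0.65, adjusted P = 0.0142, edgeR), from 0 to 10 counts in each nova-1 library. Leaving out 1 library gave -3.16 (without nova-1 replicate 1) to -1.58 (without wild-type replicate 1, adjusted P = 0.0256). Another 4 loci of this group passed the fold and unadjusted P criterion, which 40.4% of all loci passed. They were lower at tra-1 (log2 fold change -0.75), the Gli-family regulator of sexual fate, at unc-62 (-0.94), a Meis-family homeodomain gene, and at mdt-20 (-0.72), which encodes a Mediator subunit. They were higher at atff-3 (0.62). Without wild-type replicate 1, tra-1 also passed the adjusted threshold. The loci of daf-16, the FOXO factor of insulin signaling, sma-9, a zinc finger gene of body size control, and zip-12 had log2 fold changes of -0.82, 0.15 and 0.19, and none passed either criterion.

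RNA-processing hosts gave 3 loci, of which emb-4 passed, where 28.4% of all loci did. Emb-4 encodes the worm relative of Aquarius, an intron-binding helicase of the spliceosome. Its circle cel_circ_0000669 (2060 nt, 2 exons) fell from 21.5, 8.96, 6.99, 7.15 and 20.7 normalized counts in wild-type to 2.45, 3.99, 5.35, 2.09 and 1.09 in nova-1 mutants, without overlap. The log2 fold change was -2.08 (standard error 0.55, adjusted P = 0.00529, edgeR), at 1 to 6 counts in each nova-1 library. Circles of ntl-11, a subunit gene of the CCR4-NOT deadenylase, and of ddx-19, a DEAD-box helicase gene, had log2 fold changes of -0.06 and -1.45. The second rested on 8 counts over all libraries.

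Of the 5 loci of cytoskeletal and polarity hosts, 0 passed with edgeR or DESeq2, where 28.4% of all loci passed with edgeR. Among the 5, lev-11 alone had an unadjusted P under 0.05, by both tools. The log2 fold changes of the 5 ran from -1.17 to -0.0013 with TMM, and 2 of the 5 were below 0 with column totals. Lev-11, the tropomyosin gene, had 38.6 normalized counts in wild-type replicate 1 and 3.11 to 9.32 in the other 4 wild-type libraries. The others were the PAR polarity gene par-2, gei-4 and the afadin gene afd-1, whose long circle is listed at 2 positions 1 nt apart. The single signaling host, the PAK-family kinase gene max-2, had a log2 fold change of 0.19.

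Among hosts outside these groups, 5 of 12 loci were called, 3 higher and 2 lower. Of all loci, 28.4% were called, 15.6% higher and 12.8% lower. Pqn-41 encodes a glutamine-rich protein required for the death of the linker cell in males, and 2 of its 3 long circles rose. Cel_circ_0000334 (1796 nt) had 19.7, 33.9, 24.5, 53.7 and 37.3 normalized counts in wild-type and 99.0, 96.8, 85.7, 61.5 and 69.9 in nova-1 mutants, without overlap. Its log2 fold change was 1.30 (standard error 0.27, adjusted P = 0.000588, edgeR). Cel_circ_0000335 (3610 nt), which uses the same acceptor and a donor further downstream, had 13.5, 18.9, 16.3, 32.2 and 24.9 in wild-type and 54.0, 50.9, 19.6, 21.9 and 53.5 in nova-1 mutants. The nova-1 libraries of that circle fell into 3 high and 2 within the wild-type range, and the log2 fold change of 0.92 (standard error 0.33, adjusted P = 0.0382, edgeR) did not pass without wild-type replicate 2 or 3 or nova-1 replicate 1, 2 or 5 (adjusted P up to 0.126). The third circle, cel_circ_0000908, which shares neither splice site, had a log2 fold change of -0.16 (adjusted P = 0.807, edgeR).

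The largest increase of the class was at tmem-189, listed as Y53C10A.5, whose mammalian namesake is a desaturase that makes plasmalogens. Its circle ce11_new_9 (1451 nt, 4 exons) had 26.9, 24.9, 19.8, 29.8 and 18.7 normalized counts in wild-type and 70.3, 64.9, 60.7, 43.8 and 67.7 in nova-1 mutants. All nova-1 libraries were above all wild-type libraries, and the log2 fold change was 1.35 (standard error 0.26, adjusted P = 0.000318, edgeR). K02D10.1, whose oligonucleotides are given above, fell from 35.0, 49.8, 50.1, 51.3 and 37.3 normalized counts to 22.9, 19.96, 14.3, 6.26 and 17.5, without overlap (log2 fold change -1.45, standard error 0.31, adjusted P = 0.000941, edgeR). The circle of ZK228.3 (1819 nt, 4 exons) had 37.7, 9.96, 21.0, 9.54 and 9.33 normalized counts in wild-type and 0 in every nova-1 library. Against a floor of 3 counts per library, the wild-type mean of 17.5 gave a bound of 6.02-fold lower. That mean includes wild-type replicate 1 at 37.7, and the wild-type median was 9.96, which would give a smaller bound.

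**Figure D4:**
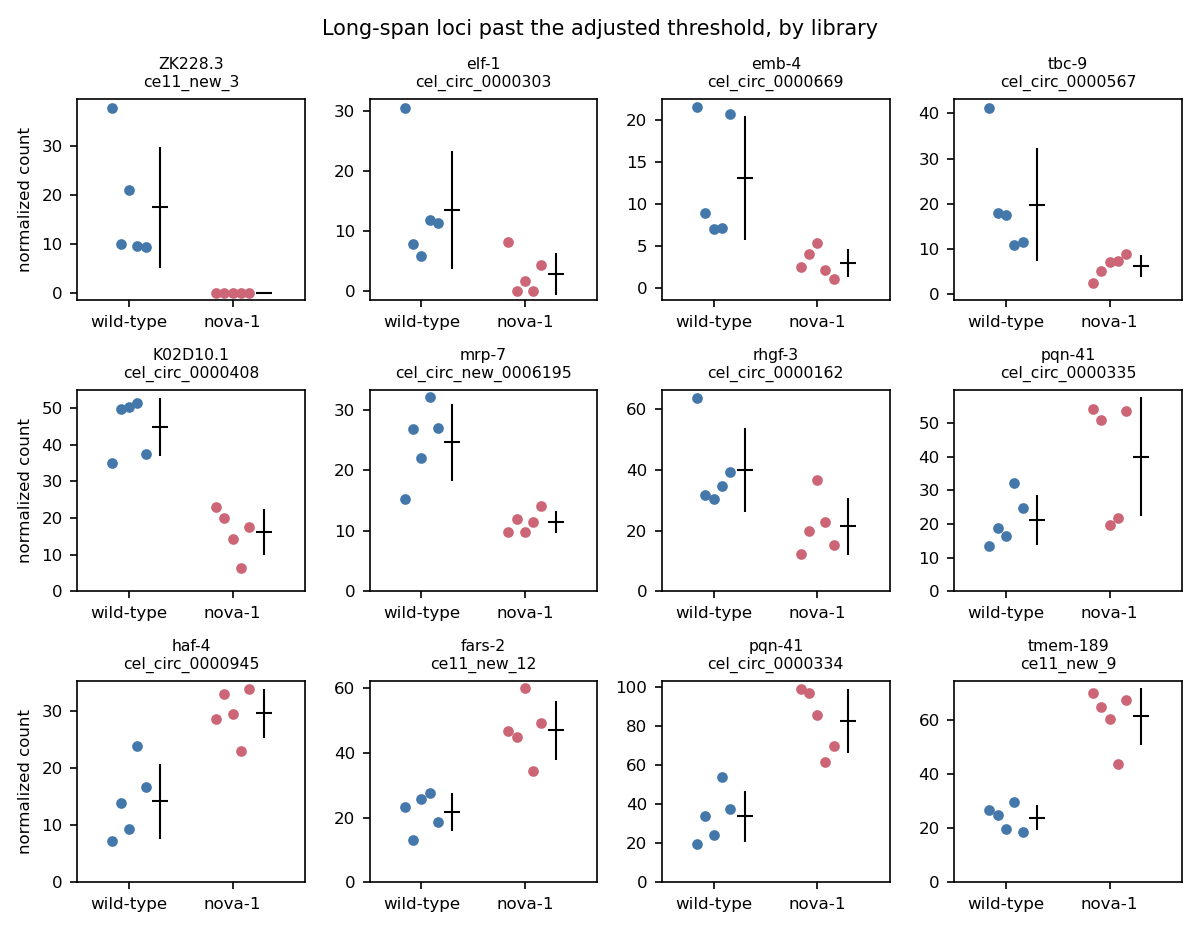
Normalized counts (scaled to a mean library of 9421) of the 12 long-span loci past an adjusted P of 0.05, 1 point for each library, with the mean and SD of 5 libraries beside them. The genotypes do not overlap at 8 of the 12, and overlap at elf-1, haf-4, the rhgf-3 circle and the pqn-41 circle cel_circ_0000335.

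Position on chromosome V moved with some of these calls. The nova-1 gene lies at 18070004 to 18081957 on chromosome V of the annotation, and 4 long loci lay within 2 Mb of it, at 0.38 (ZK228.3), 0.80 (emb-4), 1.60 (mrp-7) and 1.83 Mb (fars-2). All 4 were called, 3 lower and 1 higher, and did not overlap between genotypes. Of all loci, 28.4% were called and 24.8% did not overlap. Of the 6 shorter loci in the same window, 1 was called. Without the 4, 8 of 37 long loci were called (4 higher and 4 lower), or 21.6%. Alleles linked to nova-1 and the loss of nova-1 cannot be told apart at these loci.

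Where a host had more than 1 circle, the share of its circRNA counts taken by a long circle was compared, which does not depend on library size or TMM. There were 14 such shares in 8 hosts, counting 1 of the pair where a host had only a pair of long circles, each tested with a two-sided exact permutation test over 5 against 5 libraries, for which the smallest p is 0.00794. With Benjamini-Hochberg adjustment over the 14, 3 passed. All 3 had the smallest p, and a share at that p passes only if other shares have it as well. Their adjusted values are therefore not separate results. The long fars-2 circle rose from 22.4% ± 7.70 of that gene's counts in wild-type to 46.6% ± 8.94 in nova-1 mutants (SD, n = 5 libraries each, exact p = 0.00794, adjusted 0.0370). Its lowest library held 10.9% (13 of 119 counts, 95% Wilson interval 6.50 to 17.8%) and its highest 61.5% (67 of 109, 52.1 to 70.1%). The other fars-2 circle, of 1107 nt, has the same deposited coordinate on the acceptor side. The 5 nova-1 shares of the long circle, 39.8 to 61.5%, lay above its wild-type shares of 10.9 to 30.1%.

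At pqn-41, the share of cel_circ_0000334 rose from 40.02% ± 7.58 in wild-type to 55.6% ± 6.52 in nova-1 mutants (SD, n = 5 libraries each, exact p = 0.00794, adjusted 0.0370). Cel_circ_0000335, from the same acceptor, had shares of 25.4 and 25.9%, and cel_circ_0000908 had 34.6 and 18.5% (exact p = 0.0397, adjusted 0.139). The long gap-2 circle fell from 30.5% ± 8.20 in wild-type to 6.30% ± 0.91 in nova-1 mutants (SD, n = 5 libraries each, exact p = 0.00794, adjusted 0.0370). Its own normalized counts had means of 22.2 and 21.9, and the difference in share came with the other gap-2 circle, of 637 nt. Without wild-type replicate 3 or any 1 of the nova-1 libraries, 0 of the 14 passed. The genotypes at the 3 shares that passed do not overlap in any of these subsets. With unequal groups, few possible values of p and the joint adjustment, this count does not show how far they separate. The remaining 11 shares did not pass with all libraries. They included tbc-9 cel_circ_0000567, at 45.8 and 25.4% (exact p = 0.0556, adjusted 0.156), zip-12, at 76.4 and 67.5% (exact p = 0.0714, adjusted 0.167), and rhgf-3 cel_circ_new_0000504, at 26.0 and 36.0% (exact p = 0.0873, adjusted 0.175).

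**Figure D5:**
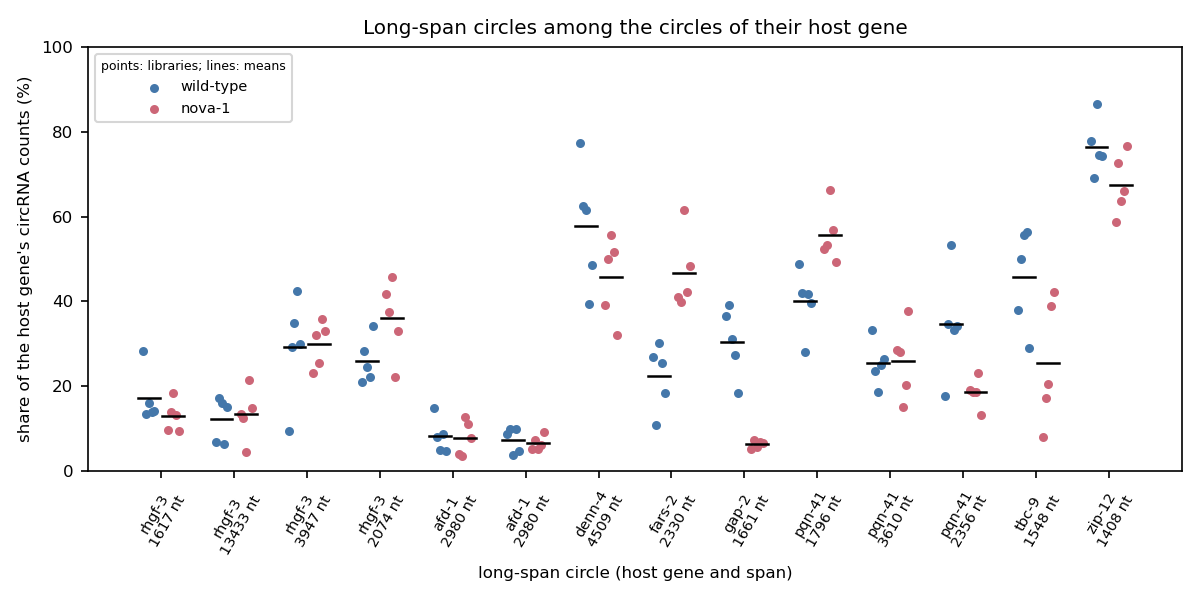
Share of a host gene's circRNA counts (percent) taken by each of 14 long-span circles, by library and genotype, with the mean of 5 libraries as a line. The genotypes separate at fars-2, gap-2 and the 1796-nt circle of pqn-41, where the nova-1 means are 46.6, 6.30 and 55.6%. At this pqn-41 circle the highest wild-type and lowest nova-1 libraries lie close together, at 48.9 and 49.2%.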

How the data were processed

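Per the labels and the study's methods, total RNA of 10 samples was sequenced after stranded library preparation. The authors deposited raw counts, made by predicting back-splice junctions in reads left unmapped to WBcel235/ce11, mapping reads to 200-nt junction scaffolds, removing duplicates and counting. No normalization had been applied, and each replicate has its own column. Every column was matched to a sample by genotype and replicate number, and 0 were left over. Loci were linked to IDs and host names of the study's circRNA list by identical coordinates (33 of the 41 long loci) or, for 8, by spans equal to within 1 nt at starts up to 150 nt apart. Exons came from Ensembl release 115.

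Counts were tested with edgeR v4.0.16 (TMM, quasi-likelihood F-test, R v4.3.3) over all 141 loci without a covariate. The standard error was the size of the log2 fold change over the square root of the F statistic. Shares were tested in scipy v1.17.1. Library totals of 7955 to 15014 leave wide errors at loci with few counts. Data were simulated with the libraries and means of the 141 loci, with 30 changed by 1.5 on the log2 scale. There edgeR called 25 of the 30 and 1 of the 111 unchanged loci. Every simulated locus had the same dispersion of 0.105, so these counts do not cover loci that vary more or change less. The labels name replicates, and the study calls them biological. Named loci are those past the adjusted threshold, the 5 most abundant, those of hosts named by the study or with more than 1 locus, and those nearest the limit. The class, the host groups and these rules were chosen with earlier results of these data known. Alternatives were RLE factors, DESeq2 v1.42.0, column totals, a filter on low counts, robust dispersion, summing loci within 2 nt, a replicate block and leaving out each library. Linear transcripts were not analysed here.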

Additional observations from a re-analysis of the deposited data

Results flagged for a closer look

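Of 53 groups of 5 libraries examined with Dixon's test at 95%, 4 held a library far from the other 4, and about 2.7 would be so by chance. These groups did not cover all 41 long loci. Lev-11, with 38.6 normalized counts in wild-type replicate 1 against 3.11 to 9.32 in the other wild-type libraries, was outside them. At 3 loci that library was wild-type replicate 1. It had 30.5 normalized counts at elf-1 (5.83 to 11.9 in the other wild-type libraries), 41.3 at tbc-9 cel_circ_0000567 (10.7 to 17.9) and 63.7 at rhgf-3 cel_circ_0000162 (30.3 to 39.4). At M01G5.1, wild-type replicate 2 had 26.9 normalized counts against 14.5 to 17.9 in the others.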

How the results depend on the processing

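Under the alternatives, 9 to 13 long loci were called, and no named locus changed direction where it was called with all libraries or under the alternative. RLE factors, robust dispersion, summing loci within 2 nt and the replicate block gave the same 12 calls. DESeq2 gave 11 and column totals 10. The filter on low counts gave 9 of 33 tested loci, 8 of them among the 12, since ZK228.3, elf-1 and emb-4 were removed and pqn-41 cel_circ_0000335 no longer passed. By fold and unadjusted P, 7 were lower with that filter and 6 with column totals, against 11. Column totals moved the median log2 fold change to 0.020, and leaving out single libraries gave -0.32 to -0.14. The filter, column totals or DESeq2 ended the calls of pqn-41 cel_circ_0000335 (adjusted P = 0.0602 and 0.0534 with filter and DESeq2), rhgf-3 cel_circ_0000162 (0.169) and mrp-7 (0.0640). Without 1 library, 10 to 13 loci were called, and the pqn-41 and rhgf-3 loci above were each lost in 5 of 10 such fits. Without the 3 most counted loci, the share of the class was 21.5% in wild-type and 18.9% in nova-1 mutants, and without col-181 as well it was 24.9 and 19.8%. The number of within-host shares past the adjusted threshold was 0 to 4 without 1 library, a count limited by the smallest p and the joint adjustment. Same-numbered libraries had correlations of -0.163 to 0.0906, and only wild-type replicate 2 correlated best with its own number. No pairing by number was seen in these values, and the labels do not state one. With the replicate block, 31 of 141 loci were called against 40, and 12 long loci. Depth limits loci such as ddx-19, with 8 counts in all. Among loci that were not called, log2 fold changes near 0 turned sign. With column totals they were 0.020 at pqn-41 cel_circ_0000908, 0.048 at denn-4 cel_circ_0000479, 0.094 at rhgf-3 cel_circ_new_0000504, 0.22 at gap-2 cel_circ_new_0007824, and 0.22 and 0.0033 at afd-1 cel_circ_new_0000733 and cel_circ_new_0000732, and with the filter -0.047 at M01G5.1. Without 1 library they ranged from -0.073 to 0.22 at M01G5.1, -0.42 to 0.024 at pqn-41 cel_circ_0000908, -0.71 to 0.27 at tbc-9 cel_circ_0000566, -0.32 to 0.11 at rhgf-3 cel_circ_new_0000504, -0.25 to 0.15 and -0.37 to 0.068 at the afd-1 loci, and -0.22 to 0.064 at gap-2. Differences in within-host share then ranged from -0.99 to 3.28 points at rhgf-3 cel_circ_new_0000493, -4.27 to 3.98 at cel_circ_new_0000501, -1.60 to 1.30 at afd-1 cel_circ_new_0000733 and -2.38 to 3.25 at pqn-41 cel_circ_0000335.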
